A study of Mus musculus with 6 samples.

Results

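Transcripts of macrophages were followed in RNA sequencing libraries of cultured mouse osteoblasts, the bone-forming cells. They were represented by 10 genes named by symbol, of 55471 genes in the count table, and all 10 were found and passed the filter on low counts. These were Ptprc, Laptm5, Csf1r, Tyrobp, Fcer1g, C1qa, C1qb, C1qc, Cd68 and Lyz2. The cells came from the calvaria, the flat bones of the skull roof, of 3-day-old C57BL/6 mice, and 3 libraries each were made from wild type (WT) cells and from cells lacking Tet1, Tet2 and Tet3 (TCKO). TET proteins oxidise methylated cytosine in DNA. The TCKO mice carried Tet1fl/fl, Tet2fl/fl and Tet3fl/fl alleles and Prx1-Cre, a Cre recombinase driven in limb and skull mesenchyme, the lineage of osteoblasts and not of blood cells. The alleles of the WT mice beyond wild type are not given in the sources used here, nor whether the replicates were separate animals, so the p-values measure the spread between these libraries, which may be technical. Both genotypes were released with collagenase and Dispase II and cultured for the same time before RNA was taken.

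Macrophages arise from blood-forming precursors and settle in bone, where they line its surfaces and take up dying cells, and a digest of bone releases them together with the osteoblasts. They live on signals through the CSF1 receptor, whose ligands CSF1 and IL-34 are made by other cells of the tissue. Many resident macrophages also make C1q, the recognition molecule that starts the classical complement cascade. In bulk RNA, fewer cells of a type and less RNA per cell cannot be told apart, so every value here is a level in the whole culture.

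The libraries held 8019999 to 10177214 counts, at which 3 counts correspond to 0.299 to 0.373 CPM, the counts scaled to a common library total. Levels are CPM adjusted by the trimmed mean of M values (TMM), and a gene was called where edgeR's quasi-likelihood test gave a Benjamini-Hochberg adjusted p under 0.05 over 13826 genes. Replicate 3 of each genotype stood apart from replicates 1 and 2: mitochondrial genes took 2.22% of counts in WT replicate 3 and 2.47% in TCKO replicate 3, against 1.11 to 1.24% in the other libraries. TCKO replicate 3 also held 4583 Xist counts and no Ddx3y counts, the X-inactivation transcript and a Y-linked gene, whereas each other library held 1 to 4 and 675 to 1094. By these transcripts TCKO replicate 3 was female and the other libraries were male. In replicate 3 genotype and sex therefore cannot be told apart, and a model with the replicate number does not remove this. Of the targeted genes, Tet1 was counted 98, 131 and 115 times in the WT libraries and 68, 51 and 51 times under TCKO (adjusted p = 0.00648, edgeR), Tet2 did not pass (adjusted p = 0.545) and Tet3 rose (log2 fold change 0.51 ± 0.09 SE, adjusted p = 0.00745). Counts over whole genes include exons outside a deleted part, so the Tet values check the labels only in part.

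All 10 transcripts had a negative log2 fold change in TCKO, with a median of -0.81 against 0.00 over all genes tested. Without the replicate number in the model, 1 of 10 was called lower, Csf1r, beside 8.63% of all genes, and it was also past a 2-fold change, as 3.19% of all genes were. None was called higher by edgeR or by DESeq2, beside 9.07% of all genes in edgeR, and none was higher at an unadjusted p under 0.05. At that unadjusted threshold 3 were lower, Csf1r, Ptprc and Tyrobp. The share of all genes at the unadjusted threshold was not computed, so the 3 cannot be set against it. With the replicate number as a block, all 10 were called lower, beside 11.5% of all genes, at adjusted p-values from 0.000571 to 0.0433 (edgeR) and a median of -0.85. The fold changes themselves moved little between the fits and the errors shrank, from 0.70 to 0.14 for C1qa. The pairing by replicate number was read from these same data and does not tell replicates 1 and 2 apart. With replicates 1 and 2 summed, 0 of the 10 were called lower, beside 1.22% of all genes. With that sum and the block 2 were called, beside 4.09%.

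**Figure D1:**
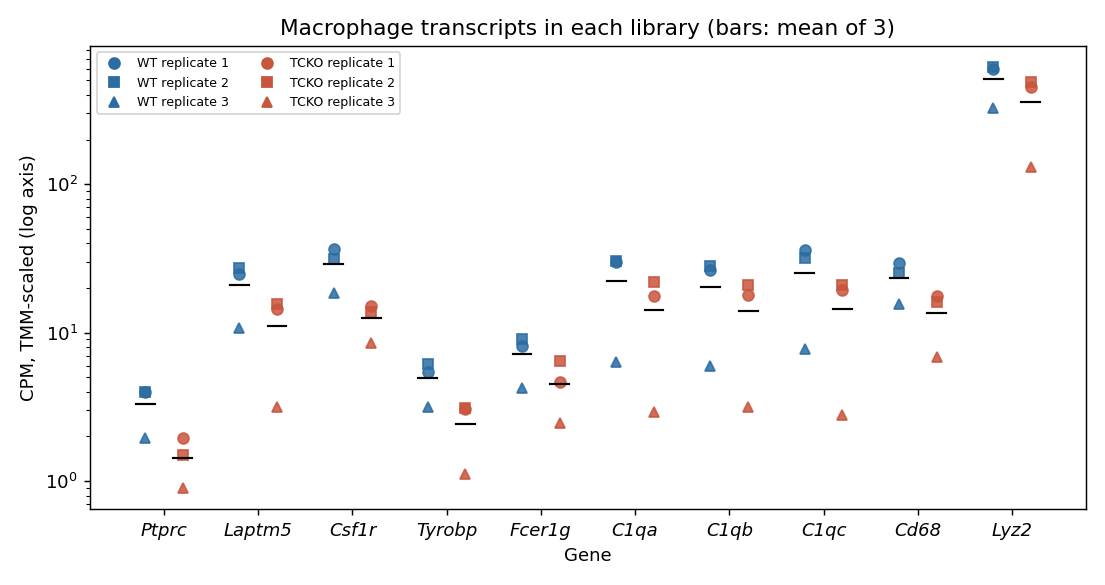
TMM-scaled CPM of each transcript (log axis) in the 3 WT libraries (blue) and the 3 TCKO libraries (red), with the symbol shape giving the replicate number and bars the mean of 3. In every gene the triangle, replicate 3, lies lowest in its genotype, and for Csf1r WT ran from 18.5 to 36.7 CPM and TCKO from 8.53 to 15.1 CPM.

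The libraries labelled replicate 3 held less of every transcript in both genotypes, beside the higher mitochondrial share and, in TCKO, the different Xist level given above, whose part in the results was not tested. On the log2 scale replicate 3 lay below the mean of replicates 1 and 2 by amounts between -0.82 for Cd68 and -2.26 for C1qa in WT, and between -0.76 for Csf1r and -2.85 for C1qc in TCKO. The genotype difference within replicates 1 and 2 ran from -0.36 for Lyz2 to -1.24 for Csf1r, and in replicate 3 from -0.78 for Fcer1g to -1.78 for Laptm5. All 10 transcripts were lower in TCKO in both sets, as 34.3% of all genes tested were. The 10 transcripts varied together and are not independent: Pearson's r of log2 CPM between members over the 6 libraries had a median of 0.94 over 45 pairs. These points share their libraries and 1 genotype contrast.

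Csf1r and Ptprc are the receptors at the head of the list. Csf1r (ENSMUSG00000024621, GRCm38 chromosome 18, 61100598 to 61132149, plus strand) encodes the receptor for CSF1 and IL-34, on which macrophages depend for survival. It stood at 36.7, 31.3 and 18.5 CPM in WT and at 15.1, 13.8 and 8.53 CPM in TCKO. Every WT library lay above every TCKO library, as in 18.9% of all genes, and Csf1r fell by 1.21 on the log2 scale (SE 0.29, n = 3 per genotype, adjusted p = 0.0253, edgeR). The difference was -1.24 within replicates 1 and 2 and -1.12 in replicate 3. Leaving out WT replicate 1, WT replicate 2, TCKO replicate 1 or TCKO replicate 2 ended the call. The adjusted p-values were 0.0955, 0.0935, 0.0529 and 0.0698 (edgeR), with differences from -1.01 to -1.38. In these fits 3.98 to 4.60% of all genes were called lower. Exons of Csf1r share 873 bases with Hmgxb3 on the opposite strand, and the strand setting of the counting is not given, so some reads may belong to either gene. Hmgxb3 itself had a log2 fold change of 0.05 ± 0.08 (adjusted p = 0.704, edgeR).

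Ptprc (ENSMUSG00000026395, GRCm38 chromosome 1, 138062861 to 138175708, minus strand) encodes CD45, the phosphatase on the surface of all nucleated blood cells. Its counts were 33, 40 and 16 for WT libraries and 17, 12 and 8 for TCKO libraries, or 4.0, 3.99 and 1.94 CPM against 1.94, 1.49 and 0.897 CPM. The lowest WT library and the highest TCKO library met at the same level, and no other libraries overlapped. Its log2 fold change was -1.20 ± 0.40 SE, with an adjusted p of 0.0755 (edgeR) and, with the replicate block, 0.0215. Laptm5, a lysosomal membrane protein of blood cells, ran at 24.7, 27.3 and 10.8 CPM in WT and 14.5, 15.5 and 3.14 CPM in TCKO. WT replicate 3 lay below TCKO replicates 1 and 2, and Laptm5 had the largest difference of the list in replicate 3, at -1.78 (log2 fold change -0.93 ± 0.53 SE, adjusted p = 0.275, with the block 0.0115, edgeR).

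Tyrobp and Fcer1g encode small adaptors, DAP12 and the Fc receptor gamma chain, that carry an immunoreceptor tyrosine-based activation motif (ITAM) and pass signals from receptors that lack one. Tyrobp stood at 5.45, 6.19 and 3.15 CPM in WT and 3.08, 3.11 and 1.12 CPM in TCKO. The groups did not overlap, but WT replicate 3 exceeded the nearest TCKO library by little, 26 counts against 25 (log2 fold change -1.03 ± 0.41 SE, adjusted p = 0.126, with the block 0.0217, edgeR). Fcer1g stood at 8.11, 9.08 and 4.24 CPM in WT and 4.68, 6.46 and 2.47 CPM in TCKO, so that WT replicate 3 lay below TCKO replicates 1 and 2. Its log2 fold change was -0.67 ± 0.39 SE (adjusted p = 0.284, with the block 0.0404, edgeR). Fcer1g counts per Tyrobp count were 1.49, 1.47 and 1.35 in WT and 1.52, 2.08 and 2.20 in TCKO.

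C1qa, C1qb and C1qc encode the chains of C1q and lie side by side on chromosome 4 of GRCm38, from 136880129 to 136898803, all on the minus strand. C1qa stood at 29.8, 30.6 and 6.30 CPM in WT and at 17.7, 21.9 and 2.92 CPM in TCKO. C1qb stood at 26.6, 28.0 and 5.94 CPM against 18.0, 21.0 and 3.14 CPM, and C1qc at 35.8, 32.0 and 7.76 CPM against 19.4, 21.0 and 2.80 CPM. In each chain replicates 1 and 2 of WT were highest, replicates 1 and 2 of TCKO next, then WT replicate 3 and last TCKO replicate 3. The range of CPM within each genotype was therefore larger than the difference of the means. The log2 fold changes were -0.66 ± 0.70, -0.54 ± 0.68 and -0.82 ± 0.70 SE with adjusted p-values of 0.562, 0.636 and 0.466 (edgeR). With the block the log2 fold changes were -0.70 ± 0.14, -0.56 ± 0.13 and -0.87 ± 0.15, with adjusted p-values of 0.0130, 0.0227 and 0.00895 (edgeR). Of the summed counts of the chains, C1qa took 31.5 to 34.2% over all libraries. C1qb took 28.9 to 30.9% in WT and 32.7 to 35.4% in TCKO, and C1qc 35.3 to 38.8% in WT and 31.6 to 35.2% in TCKO. For C1qc the nearest libraries almost met, at 35.3% in WT replicate 2 and 35.2% in TCKO replicate 1. The shares rest on 79 to 909 counts of the chains per library, no interval was computed for them, and a difference between genotypes was not tested.

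The size of the difference in the C1q chains changed when a single replicate 3 library was left out. Without TCKO replicate 3 the log2 fold changes were -0.17 for C1qa, -0.06 for C1qb and -0.32 for C1qc. Their adjusted p-values were 0.849, 0.953 and 0.701 (edgeR). Without WT replicate 3 the log2 fold changes were -1.10, -0.97 and -1.24. Within replicates 1 and 2 of both genotypes the log2 ratios of mean CPM were -0.61, -0.49 and -0.75.

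Cd68 and Lyz2 encode proteins of the lysosome and its secretions, a membrane glycoprotein and the enzyme lysozyme that cleaves bacterial walls. Cd68 stood at 29.3, 25.4 and 15.5 CPM in WT and 17.7, 16.0 and 6.84 CPM in TCKO, and WT replicate 3 lay just below TCKO replicates 1 and 2. Its log2 fold change was -0.80 ± 0.35 SE (adjusted p = 0.165, with the block 0.00619, edgeR). Lyz2 stood at 595, 616 and 325 CPM in WT and 455, 488 and 131 CPM in TCKO. Again WT replicate 3 fell below TCKO replicates 1 and 2 and above TCKO replicate 3, and the difference of -0.52 ± 0.46 SE was the smallest of the list in the fit without the block (adjusted p = 0.482, with the block 0.0433, edgeR). Without TCKO replicate 3 the difference in Lyz2 was -0.11 (adjusted p = 0.779, edgeR). Reads of Lyz2 could be split with its near copy Lyz1, which had 2 to 17 counts per library.

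**Figure D2:**
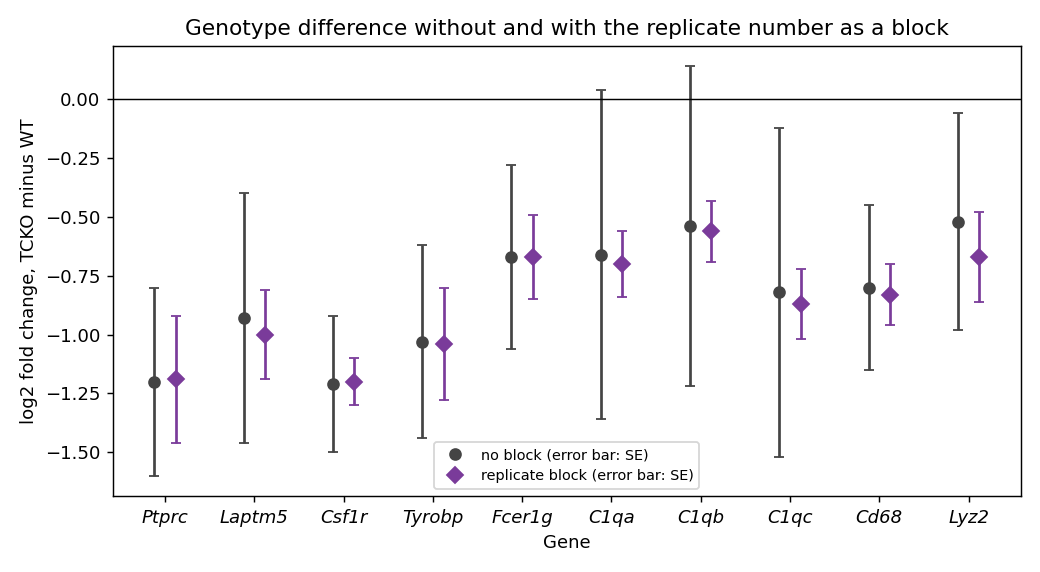
Log2 fold change of TCKO against WT (y axis) for each transcript in the edgeR fit without (circles) and with (diamonds) the replicate number as a block, with SE as error bars. All points lie below 0, and the error bar of C1qa shrinks from 0.70 to 0.14.

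Per length of transcript (CPM divided by the kilobases of annotated exon, written RPKM), Lyz2 stood far above the others at 389 ± 123 in WT and 272 ± 150 in TCKO (SD, n = 3). In WT it was followed by C1qa (21.4 ± 13.3), C1qb (18.6 ± 11.4), Cd68 (18.6 ± 5.66) and C1qc (13.1 ± 7.89), neighbours within each other's spread. Fcer1g (8.18 ± 2.93), Tyrobp (7.39 ± 2.37), Laptm5 (5.53 ± 2.35) and Csf1r (5.00 ± 1.61) came next, each again within the spread of its neighbours, and Ptprc was lowest at 0.181 ± 0.0648 RPKM. The length of Ptprc here covers all of its annotated exons. In TCKO the means ran from 272 RPKM for Lyz2 to 0.0788 RPKM for Ptprc, and C1qa was again second at 13.6 ± 9.58 RPKM.

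Summed over the list, the transcripts made up 0.0782, 0.0797 and 0.0397% of the WT libraries and 0.0569, 0.0610 and 0.0166% of the TCKO libraries. Lyz2 carried 74.8 to 81.4% of these counts, so the remaining 9 were also summed without it, giving 201, 194 and 74.2 CPM in WT and 112, 120 and 31.9 CPM in TCKO. On both sums WT replicate 3 fell below TCKO replicates 1 and 2 and above TCKO replicate 3.

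The make-up of the list differed between the replicates. The C1q chains took 46.0% (exact 95% binomial interval 43.6 to 48.5%) and 46.7% (44.5 to 49.0%) of the counts of the 9 transcripts in WT replicates 1 and 2, and 27.0% (23.5 to 30.7%) in WT replicate 3. In TCKO the shares were 49.2% (46.0 to 52.4%), 53.1% (49.9 to 56.3%) and 27.8% (22.7 to 33.4%). Replicate 3 of both genotypes thus had fewer C1q counts among its macrophage transcripts, beyond counting error, and the intervals cover counting error only. The share of Csf1r went the other way, at 18.3, 16.1 and 25.0% in WT and 13.4, 11.5 and 26.8% in TCKO. Lyz2 counts per Csf1r count were 16.2, 19.7 and 17.5 in WT and 30.2, 35.4 and 15.4 in TCKO, so that they were higher in TCKO than in WT in replicates 1 and 2 and not in replicate 3. Whether the genotype difference depended on the replicate was not tested.

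**Figure D3:**
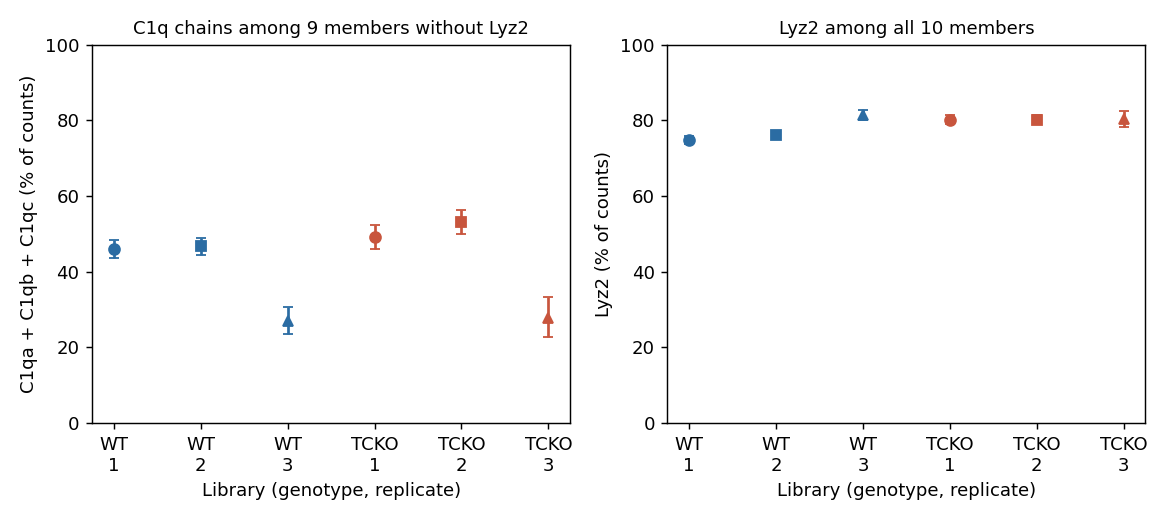
Left, C1qa, C1qb and C1qc as a percentage of the counts of the 9 transcripts without Lyz2, and right, Lyz2 as a percentage of the counts of all 10, in each library, with exact 95% binomial intervals. The C1q share is 46.0 to 53.1% in replicates 1 and 2 and 27.0 to 27.8% in replicate 3, while the Lyz2 share stays within 74.8 to 81.4%.

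Other genes known from macrophages were counted from a list of 30, of which 20 passed the filter and 1, Timd4, had no count in any library. Of the 20, 3 were called lower, beside 8.63% of all genes, and none higher, with a median log2 fold change of -0.77. With the block 10 were lower, beside 11.5% of all genes, and none higher. With replicates 1 and 2 summed 0 were lower, beside 1.22% of all genes, and 5 with that sum and the block, beside 4.09%. Without WT replicate 3, 5 were lower, beside 10.9% of all genes. Without TCKO replicate 3, 2 were lower, beside 10.1%, and 1 was higher, beside 1483 of all 13826 genes. The 3 called without the block were Adgre1, the gene of the F4/80 antigen (-1.44 ± 0.27 SE, adjusted p = 0.0100), Itgam, the CD11b integrin chain (-1.08, adjusted p = 0.0279), and Cybb, a subunit of the phagocyte oxidase (-1.23 ± 0.16, adjusted p = 0.00226, all by edgeR). Adgre1 ran against the members between replicates, since WT replicate 3 had the highest level, at 24.4 CPM against 14.3 and 13 CPM. Marco, a scavenger receptor, stood at 1.57, 1.10 and 19.2 CPM in WT and at 0.571, 0.746 and 3.70 CPM in TCKO, whereas Cx3cr1, the fractalkine receptor, stood at 10.8, 10.3 and 1.33 CPM in WT and at 4.79, 5.10 and 1.46 CPM in TCKO. Replicate 3 was thus high in Marco and low in Cx3cr1 in both genotypes. F13a1, a clotting factor chain made by some macrophages, had the opposite sign, at 3.51, 3.19 and 2.06 CPM in WT and 10.7, 8.08 and 0.561 CPM in TCKO (adjusted p = 0.350, edgeR).

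Of 16 genes shared by most leukocytes 13 were tested, with a median of -0.95. None was called higher and 1 was called lower, beside 8.63% of all genes. The gene called was Fermt3, an activator of integrins (-0.95, adjusted p = 0.0476, edgeR). With the block 8 were lower, beside 11.5% of all genes. The call of Fermt3 was lost when WT replicate 1, WT replicate 2 or any TCKO library was left out, each giving 0. In those fits 3.98 to 10.1% of all genes were called lower. Without WT replicate 3, 6 were lower, beside 10.9% of all genes. With replicates 1 and 2 summed 0 were lower, beside 1.22%, and 1 with that sum and the block, beside 4.09%. The summed level of this list was 94.6, 104 and 51.9 CPM in WT and 54.8, 54.8 and 24.8 CPM in TCKO. Lcp1, an actin bundler of leukocytes, was at 27.7, 30.1 and 13.2 CPM in WT and 14.2, 15 and 5.95 CPM in TCKO.

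Markers of lymphocytes and red blood cells were at or near 0. The summed level of mast cell and basophil markers was higher in TCKO, mostly through Mcpt8. Of 10 lymphocyte markers, 7 had no count in any library, among them Cd3e and Nkg7, and their summed level was 0.112 to 0.605 CPM. The 12 neutrophil and monocyte markers summed to 0.484 to 0.798 CPM in WT replicates 1 and 2, 3.15 CPM in WT replicate 3 and 1.48 to 2.36 CPM in TCKO, with Elane, Ly6g and Retnlg at 0. Erythroid markers summed to at most 0.373 CPM, and 8 endothelial markers to 3.29 to 4.96 CPM in WT and 3.48 to 6.71 CPM in TCKO. Mast cells and basophils use Fcer1g in their IgE receptor. Their 11 markers, of which 2 were tested, summed to 2.66 to 8.24 CPM in WT and 35.8 to 46.3 CPM in TCKO. Cpa3, Tpsb2, Tpsab1 and Fcer1a had no count in any library. Kit and Hdc had a lower mean in TCKO, at 0 to 7 counts per library. Most of that difference was Mcpt8, a basophil protease gene (4.85 ± 0.32 SE on the log2 scale, adjusted p = 0.000127, edgeR), next to Gata2, a transcription factor, whose levels were 1.09, 2.00 and 5.82 CPM in WT and 5.48, 4.97 and 20.3 CPM in TCKO (adjusted p = 0.123, with the block 0.00252).

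**Figure D4:**
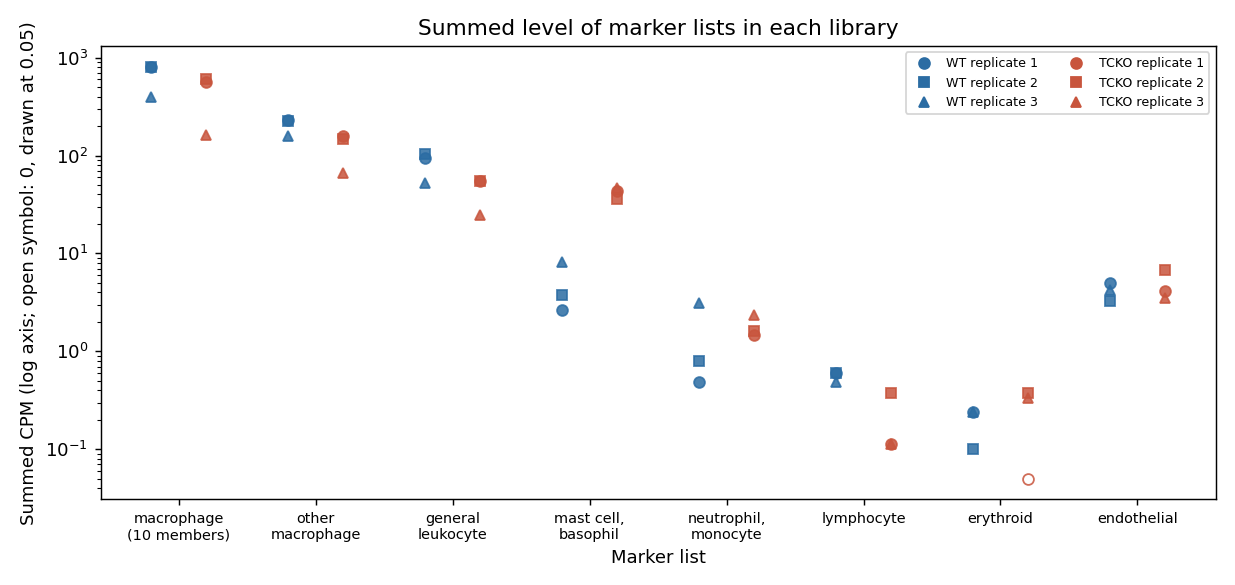
Summed TMM-scaled CPM (log axis) of marker lists in the 3 WT (blue) and 3 TCKO (red) libraries, with the symbol shape giving the replicate number. The 10 macrophage transcripts lie between 163 and 810 CPM, while lymphocyte markers lie between 0.112 and 0.605 CPM.

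Of the 2 ligands of the CSF1 receptor, Il34 was called lower, beside 8.63% of all genes, and Csf1 was not. Csf1 stood at 1060, 1030 and 1480 CPM in WT and 827, 823 and 1490 CPM in TCKO, and the groups overlapped (log2 fold change -0.18 ± 0.25 SE, adjusted p = 0.664, edgeR). In both genotypes Csf1 was highest in replicate 3, where Csf1r was lowest. Il34 stood at 19.7, 15.5 and 11.9 CPM in WT and at 4.57, 4.10 and 3.25 CPM in TCKO. Every WT library lay above every TCKO library, as in 18.9% of all genes. Il34 fell by 1.98 on the log2 scale (SE 0.23, adjusted p = 0.00152, edgeR).

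Downstream of the adaptors, 7 of 10 genes of ITAM signalling were tested, and 1 was called lower, beside 8.63% of all genes. Syk, the kinase that binds the phosphorylated motif, stood at 18.6, 19.9 and 18.1 CPM in WT and 8.33, 6.34 and 8.41 CPM in TCKO (-1.29 ± 0.15 SE, adjusted p = 0.00130, edgeR). Unlike Tyrobp and Fcer1g, Syk was at a like level in all 3 libraries of a genotype. With the block 3 were lower, beside 11.5% of all genes, with Lyn and Inpp5d added. With replicates 1 and 2 summed and the block 1 was lower, beside 4.09% of all genes.

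Of 14 complement genes beyond the C1q chains, 12 were tested. Beside 8.63% of all genes called lower and 9.07% higher, 4 of them were lower and 1 was higher. They included the partners of C1q: C1ra, a protease of the C1 complex, fell by 1.88 on the log2 scale (adjusted p = 0.00210), and Serping1, the inhibitor of that complex, fell by 2.47 (SE 0.16, adjusted p = 0.000127, edgeR). C1ra stood at 51.8, 56.0 and 32.7 CPM in WT and 14.4, 14.5 and 9.31 CPM in TCKO, with no overlap. The protease gene C1s1 had a log2 fold change of -1.03 (adjusted p = 0.0538, with the block 0.00324). Both proteases have near copies in the mouse genome with which reads could be shared. Among the receptors for complement fragments C5ar1 fell by 1.27 (adjusted p = 0.0277) and C3ar1 had -0.81 (adjusted p = 0.154, with the block 0.00514), Cd55 also fell, by 1.19 (adjusted p = 0.0235), and C2 was higher (1.65, adjusted p = 0.00628, edgeR). With the block 7 were lower, beside 11.5% of all genes, and 1 higher. With replicates 1 and 2 summed 1 was lower, beside 1.22% of all genes, and 0 higher, beside 217 of all 13826 genes. With that sum and the block 5 were lower, beside 4.09%, and 0 higher, beside 584 genes. Leaving out WT replicate 1, WT replicate 2 or TCKO replicate 2 gave 2 lower, beside 3.98 to 4.60% of all genes. Leaving out WT replicate 3 gave 7, beside 10.9%.

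Osteoclasts, the bone-resorbing cells, come from the same precursors as macrophages. Of 11 of their genes, 5 were tested and 1 was called lower, beside 8.63% of all genes. It was Ctsk, the gene of cathepsin K (-2.39, adjusted p = 0.000148, edgeR). Ctsk stood at 131, 127 and 106 CPM in WT and 29.1, 22.0 and 18.5 CPM in TCKO. The study also cites Ctsk as a marker of stem cells of the periosteum, and which cells its RNA came from was not tested. The other 4 genes tested had a positive log2 fold change, and the median of the 5 was 0.47. With the block Itgb3, an integrin chain, was also called, higher by 0.56 (adjusted p = 0.0123, edgeR). With replicates 1 and 2 summed and the block 0 were higher, beside 584 of all 13826 genes. Acp5, the tartrate-resistant phosphatase, stood at 2.30, 1.60 and 3.15 CPM in WT and 3.08, 4.72 and 1.91 CPM in TCKO, and Ocstamp, Dcstamp, Calcr and Siglec15 had at most 1 count in any library. Osteoblast genes had 4 of 8 tested members lower, beside 8.63% of all genes, among them Alpl, Sparc and Col1a1, and Spp1 higher. Under the block 6 were lower, beside 11.5% of all genes, and 1 higher. With replicates 1 and 2 summed 0 were called, beside 1.22% of all genes lower and 217 of 13826 higher. With that sum and the block 2 were lower, beside 4.09%, and 0 higher, beside 584 genes. Markers of the cultured cells thus moved with genotype in the fits on 6 libraries, beside the macrophage transcripts. Their part in those differences was not tested.

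Of 7 transcription factors of the myeloid lineage, 5 had a negative log2 fold change and 2 a positive one, with a median of -0.86. In the main fit 1 was called lower, beside 8.63% of all genes, and 2 higher, beside 9.07%. Spi1, which encodes PU.1, the factor that macrophages need to form, fell by 1.83 on the log2 scale (SE 0.38, adjusted p = 0.0148, edgeR), from 4.60, 4.79 and 3.64 CPM in WT to 1.26, 1.86 and 0.561 CPM in TCKO. Irf5 (0.80, adjusted p = 0.0397) and Runx1 (0.63, adjusted p = 0.0229, edgeR) rose, and the remaining 4 of 7 did not pass. Runx1 stood at 58.2, 59.4 and 73.3 CPM in WT and 111, 105 and 79.4 CPM in TCKO. Unlike the members, it was not lowest in WT replicate 3. Which cells the RNA of Irf5 and Runx1 came from was not tested. The call of a lower factor was lost (0 called) without WT replicate 1, WT replicate 2 or TCKO replicate 1, and the 2 higher calls were lost (0 called) without any of these or TCKO replicate 2. In these fits 3.98 to 4.60% of all genes were called lower, and 603 to 706 of 13826 higher. Without TCKO replicate 3, 1 was higher, beside 1483 genes. With replicates 1 and 2 summed 0 were called in either direction, beside 1.22% of all genes lower and 217 genes higher. With that sum and the block 2 were lower, beside 4.09%, and 0 higher, beside 584 genes. With the block on all 6 libraries Cebpa was called lower too (-0.89, adjusted p = 0.00301, edgeR), and Irf5 and Runx1 were still called higher.

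PU.1 controls many macrophage promoters, and promoters of the members were searched for its core letters. The motifs were GAGGAA and GGAAGT on both strands in the 250 bases before the start of transcription in RefSeq (GRCm38.p6), where 7 of the 10 members had an entry, all but C1qa, Tyrobp and Csf1r. GAGGAA lay in 5 of 7 (Ptprc, Laptm5, Cd68, C1qb, C1qc), against 25.9% of 27025 genes, GGAAGT in 5 of 7 (Ptprc, Laptm5, Lyz2, C1qb, C1qc), against 22.2%, and at least 1 of them in 6 of 7, against 40.2%. A match is a description of letters and not of binding. The 3 stretches that follow carry the match in the transcripts that make up most of the counts, and capitals mark the motif letters, where both motifs may overlap and a match on the other strand reads ACTTCC or TTCCTC. They run 5′ to 3′ on the minus strand of the chromosome, which is the strand of each gene, at chr4:136886201-136886350 for C1qb, chr4:136893066-136893164 for C1qc and chr10:117282322-117282471 for Lyz2.
C1qb: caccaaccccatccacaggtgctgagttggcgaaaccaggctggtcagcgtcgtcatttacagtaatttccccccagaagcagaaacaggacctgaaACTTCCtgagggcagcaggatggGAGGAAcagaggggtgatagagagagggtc
C1qc: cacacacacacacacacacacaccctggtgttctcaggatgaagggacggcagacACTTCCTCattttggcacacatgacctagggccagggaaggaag
Lyz2: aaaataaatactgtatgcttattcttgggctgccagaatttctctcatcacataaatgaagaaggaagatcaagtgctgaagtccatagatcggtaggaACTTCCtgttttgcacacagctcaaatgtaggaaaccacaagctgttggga
In C1qb the motifs began 53 and 30 bases before the start, in C1qc they overlapped at 195 and 193 bases, and in Lyz2 the motif began 100 bases before it.

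Among 10948 genes outside the list with a mean of at least 50 counts, the levels most like the summed members over the 6 libraries were those of Mpeg1 (Pearson's r 0.998), Hmgcs1 (0.998), Arpin (0.995), Msx1 (0.995) and N4bp2l2 (0.994). Mpeg1, which encodes perforin-2 of macrophages, stood at 52.7, 58.3 and 25.3 CPM in WT and 39.0, 38.2 and 9.53 CPM in TCKO, so that, as for Lyz2, WT replicate 3 lay below TCKO replicates 1 and 2 and above TCKO replicate 3. Hmgcs1, an enzyme of cholesterol synthesis in all cells, varied over a narrower range, 127 to 166 CPM in WT and 95.7 to 149 CPM in TCKO. The summed level is mostly Lyz2. Without it the most alike were Clmn (0.999), Snhg18, Hmgcs1, Lum and Ppp1ccb, and the points share the same libraries and depth.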

How the data were processed

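Poly(A) RNA of 6 libraries (3 WT, 3 TCKO) was prepared with a directional kit. Reads were aligned with STAR 2.7.0e to GRCm38 and counted with featureCounts 2.0.0, per the study's methods and the submitters' processing notes. The deposited values are raw counts per gene, with whole numbers, made by the authors. The strand setting and treatment of multiply mapped reads are not given in the sources used here. Symbols were present for 99.4% of genes. Genes kept by edgeR's filterByExpr (13826) were scaled by TMM and tested with edgeR 4.0.16 in R 4.3.3 (glmQLFit and glmQLFTest, two-sided, Benjamini-Hochberg over all genes tested, threshold 0.05). The study itself used DESeq2, run here (1.42.0) as an alternative. Column totals ran from 8019999 to 10177214 counts, which sets the precision of low genes such as Ptprc. The test was checked on simulated data. Promoters came from RefSeq.

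Same-numbered WT and TCKO libraries deviated together from their group means (r over genes 0.21, 0.22 and 0.36), so the numbers were taken to pair the libraries. WT replicate 1 with TCKO replicate 2 gave 0.20 and WT replicate 2 with TCKO replicate 1 gave 0.23, while replicate 3 against the others gave -0.26 to -0.29, so the pairing sets replicate 3 apart and does not tell replicates 1 and 2 apart. Counts of replicates 1 and 2 of a genotype lay closer to each other than to replicate 3 (chi-square per degree of freedom 1.69 in WT and 2.04 in TCKO, against 16.6 to 23.3), but above sampling noise. They were kept as separate libraries, and summing them was an alternative. A value above sampling noise does not show that they are independent, since repeated libraries of 1 culture can also exceed it. The text names the 10 members, the genes of 14 lists (158 genes) and the 5 genes whose levels were most like the summed members. Members and lists were chosen with earlier results of these data known. Some results for genes of the lists, including calls in the higher direction among the ITAM signalling genes, are not reported here. Alternatives were other size factors, no filter, DESeq2, the replicate block, leaving out each library, and replicates 1 and 2 summed or alone.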

Additional observations from a re-analysis of the deposited data

How the results depend on the processing

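The log2 fold change of each of the 10 transcripts was negative in the main fit and under all 13 alternatives, and none was called higher under any. The count called lower, 1 in the main fit, was 1 with other size factors or DESeq2 and 3 without a filter on low counts (Csf1r, Ptprc, Cd68), where 5.42% of all genes were called lower. With the replicate block it was 10, beside 11.5% of all genes, and with replicates 1 and 2 only it was 10, beside 22.5%. With replicates 1 and 2 summed, which leaves 2 libraries per genotype, it was 0, beside 1.22% of all genes. At an unadjusted p under 0.05 (edgeR) it was 1 there, and the share of all genes was not computed. With that sum and the replicate block it was 2 (Csf1r and Cd68), beside 4.09% at the adjusted threshold. Leaving out single libraries gave 0 to 2 lower, beside 3.98 to 10.9% of all genes. Csf1r, the call of the main fit, was lost without WT replicate 1, WT replicate 2, TCKO replicate 1 or TCKO replicate 2. Each of these gave 0, beside 3.98 to 4.60% of all genes. Without WT replicate 3 the count was 2 (Csf1r and Ptprc), beside 10.9%. The median log2 fold change ranged from -1.17 without WT replicate 3 to -0.42 without TCKO replicate 3, where C1qb stood at -0.06, Lyz2 at -0.11, C1qa at -0.17 and C1qc at -0.32. Over 130 values of single transcripts, 103 kept their side of the threshold, 22 passed it newly and 5 no longer passed. The causes of these changes were not tested. Ptprc rests on 8 to 40 counts per library, which limits its precision.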
